A study of Mus musculus with 18 samples.

Results

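The sites described here are m6A peaks of the mouse uterus that were higher in LPS than in Veh and that share at least 1 base with a peak that was lower in Mel+LPS than in LPS. They were chosen by this overlap from the authors' deposited tables of differential peaks, and are called reversed peaks below. There were 4629 of them among the 12023 peaks higher in LPS (LPS-up peaks), which is 38.5%, and the other 7394 LPS-up peaks served for comparison. Reversed means only that Mel+LPS was lower than LPS at the site. Whether the level in Mel+LPS returned to that of Veh cannot be read from these tables.

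The uteri were those of wild-type female ICR mice, 8 weeks old, on day 5 of pregnancy. By the sample labels, Veh mice received saline, although the study's methods name a vehicle of saline with ethanol. LPS mice received saline in the same way and lipopolysaccharide by intraperitoneal injection at 0.5 mg/kg on days 3 and 4, and Mel+LPS mice received LPS likewise and, in place of saline, melatonin at 10 mg/kg on each of days 1 to 4, 30 min before LPS on the days with both. ICR is an outbred stock, and LPS was given to the whole animal rather than to the uterus. Each treatment had 3 replicates with an input and an immunoprecipitated library each, 18 libraries in all, and melatonin alone was not analysed here. Each peak has 1 value per comparison, the log10 likelihood ratio that the reads differ between treatments (the score below), and none per replicate, so no spread between mice can be given and no test was made. Both comparisons used the same LPS libraries, so a high signal in those libraries enters both scores, and part of the overlap is present without an effect of melatonin. Whole uterus was measured, so fewer cells of a type and less RNA per cell cannot be told apart, and the tables hold no expression level with which to check the tissue by its markers or to separate methylation from transcript abundance.

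N6-methyladenosine is placed on RNA by the METTL3-METTL14 complex at adenosines within the DRACH motif, removed by FTO and ALKBH5, and read by YTH and IGF2BP proteins that alter the decay and translation of the transcript. It is known to lie mostly near stop codons and in 3′UTRs. LPS is sensed by TLR4, which drives NF-κB and interferon genes, and inflammation in the days of uterine receptivity is known to disturb implantation.

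Reversed peaks on coding sequence, whose bases can be read from the transcripts of the GENCODE annotation (release 21, GRCm38), are shown first because the motif can be seen in them. D stands for A, G or T, R for A or G and H for A, C or T, and every DRACH on the transcript strand is in capitals, where adjoining motifs run together. The 3 peaks are those on Col6a6, which encodes a collagen VI chain, Gbp6, an interferon-induced GTPase, and Fos, an immediate-early transcription factor. They hold 4 DRACH motifs in 200 bases, 9 in 207 and 5 in 167. Their scores in LPS vs Veh were 12.5, 13.1 and 1.42, and those of the peaks they overlap in Mel+LPS vs LPS were 8.98, 7.001 and 4.54. The Mel+LPS-down peak covers 185 of the bases shown for Col6a6, 170 of those for Gbp6 and all of those for Fos.
Col6a6, chr9:105780615-105780814, minus strand: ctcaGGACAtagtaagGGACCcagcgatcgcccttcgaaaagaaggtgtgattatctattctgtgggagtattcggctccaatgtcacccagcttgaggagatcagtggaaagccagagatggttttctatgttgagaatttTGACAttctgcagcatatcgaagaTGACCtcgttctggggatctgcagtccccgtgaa
Gbp6, chr5:105277697-105277903, minus strand: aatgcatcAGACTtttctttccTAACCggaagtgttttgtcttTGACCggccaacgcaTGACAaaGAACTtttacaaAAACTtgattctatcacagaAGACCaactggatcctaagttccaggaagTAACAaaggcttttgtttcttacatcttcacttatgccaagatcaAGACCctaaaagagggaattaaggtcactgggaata
Fos, chr12:85476065-85476231, plus strand: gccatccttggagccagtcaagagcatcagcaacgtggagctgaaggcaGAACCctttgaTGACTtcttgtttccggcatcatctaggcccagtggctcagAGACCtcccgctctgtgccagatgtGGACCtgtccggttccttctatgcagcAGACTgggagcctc

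In 3′UTRs, the 30 bases around the DRACH nearest the peak centre are shown. The first 4 belong to the 3′UTR peaks that stand out by score or by the number of peaks near them, and the other 7 to genes of chromatin, acute-phase, chemokine, immediate-early, steroid receptor, implantation and apoptosis lists described below. Each of these windows lies wholly within the Mel+LPS-down peak too. The form GGAC followed by C or T is at the centre in Calb1, Slc13a5 and Slc25a48. The Slc13a5 peak, on the gene of a citrate transporter, had scores of 17.6 and 13.1.
Calb1, chr4:15907715-15907744, plus strand: tgtattgaggagGGACTcAAACTagagctg
Slc13a5, chr11:72243249-72243278, minus strand: ccatctttactaGGACCcttccatctctcc
Il17rb, chr14:29996589-29996618, minus strand: ccgggggaatagAGACTctgaagccttcct
Slc25a48, chr13:56473680-56473709, plus strand: catcctgagcttGGACTccctccctccatg
Hdac9, chr12:34049088-34049117, minus strand: agagaaaTGACATAACTgctttaccacttc
Saa3, chr7:46712019-46712048, minus strand: atctggatccctAAACAtcccaatgtgctg
Ccl11, chr11:82062320-82062349, plus strand: ctctctTGACAcTAACCcagagcctaagaa
Nr4a3, chr4:48085600-48085629, plus strand: ctgtaggaaaatAAACTtttAAACAtagtc
Nr3c2, chr8:77244316-77244345, plus strand: catgaattcccaAAACCtaaaaggtgaagc
Msx1, chr5:37820761-37820790, minus strand: ccttccactgtcAAACTctaagcgctttgg
Bcl2, chr1:106541831-106541860, minus strand: gatttacatgtaAAACAttatcttgtagtt

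A reversed peak also covered the hairpin of Mir29b-2, chr1:195037040-195037120 on the plus strand, in the 300-base interval chr1:195036843-195037142. It scored 8.14 in LPS vs Veh and 3.91 in Mel+LPS vs LPS. It was the only reversed peak among the 5 LPS-up peaks that met a hairpin of the RefSeq miRNA table used (GRCm38.p6), and the RNA had been fragmented to about 100 bases, longer than a mature miRNA. Its mature miRNAs are shown with the seed (bases 2 to 8) in capitals, and miR-29b-3p is known as a regulator of extracellular matrix transcripts.
mmu-miR-29b-3p, chr1:195037091-195037113, plus strand: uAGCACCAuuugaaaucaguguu
mmu-miR-29b-2-5p, chr1:195037050-195037074, plus strand: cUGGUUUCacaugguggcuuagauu

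The overlaps were mostly between peaks in the same place. There were 4671 pairs of overlapping peaks, which took in 4659 of the 9211 Mel+LPS-down peaks (50.6%, 95% interval 49.6% to 51.6%) and 38.5% of the LPS-up peaks (37.6% to 39.4%). These and later intervals are Wilson binomial intervals over peaks, cover counting error only, and describe these tables rather than mice. The median pair shared 165 bases and 98.3% of the LPS-up peak, and 2122 pairs (45.4%) covered it whole. Both ends were the same base in 1139 pairs (24.4%). Among the reversed peaks, 42 met 2 Mel+LPS-down peaks, and the others met 1.

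Few pairs lay near the limit of the rule. Only 29 pairs shared fewer than 20 bases, and the 3 with the fewest shared 1 base, at chr3:15852730-15852831 near Sirpb1c (scores of 3.76 and 6.32), chrX:20650459-20650578 near Uba1 (1.77 and 1.63) and chr17:87464045-87464171 near Gm30794 (the tied scores described below). Just outside it, the LPS-up peaks at chr13:12378482-12378601 in Gm5445 (3.59), chr13:67748880-67749026 in Zfp85 (5.30) and chr14:70163428-70163587 near 9930012K11Rik (1.51) adjoined a Mel+LPS-down peak with 0 bases between them. Of the other LPS-up peaks, 61 lay under 100 bases from a Mel+LPS-down peak, 761 from 100 to under 1000 bases away and 5139 (69.5%) at 10000 bases or more. Only 11 reversed peaks (0.238%) also met a peak that was higher in Mel+LPS than in LPS, against 259 of the other LPS-up peaks (3.50%). This difference follows largely from the rule, since a site called lower in a comparison is seldom also called higher in it.

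The scores chose the peaks and are given as a description. Reversed peaks had a median score of 3.785 in LPS vs Veh, with quartiles of 2.09 and 5.37 and a highest value of 102. The other LPS-up peaks had a median of 2.34, quartiles of 1.56 and 3.785 and a highest value of 62.8. Within pairs, the LPS-up score was at least 2 times the Mel+LPS-down score in 712 pairs (15.2%) and at most 1/2 of it in 412 (8.82%), with a median ratio of 0.984. The 2 scores differed by at most 5% in 1391 pairs (29.8%). Over the 4671 pairs, Spearman's rho was 0.456, which is a description since both scores contain the LPS libraries. Both scores reached 3 in 2161 reversed peaks (46.7%), 6 in 441 (9.53%) and 10 in 48 (1.04%).

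The commonest tied value accounts for a sizeable share of the pairs that matched closely. The score 3.78494 occurs in 1450 LPS-up peaks, of which 628 were reversed, and 614 of those 628 met a Mel+LPS-down peak with 3.85169, the commonest score of that table (1370 peaks). Such ties make up 13.1% of all pairs. The 614 pairs carry 1 value each in both comparisons and cannot be ranked among themselves. What the tied value stands for in reads was not tested.

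**Figure D1:**
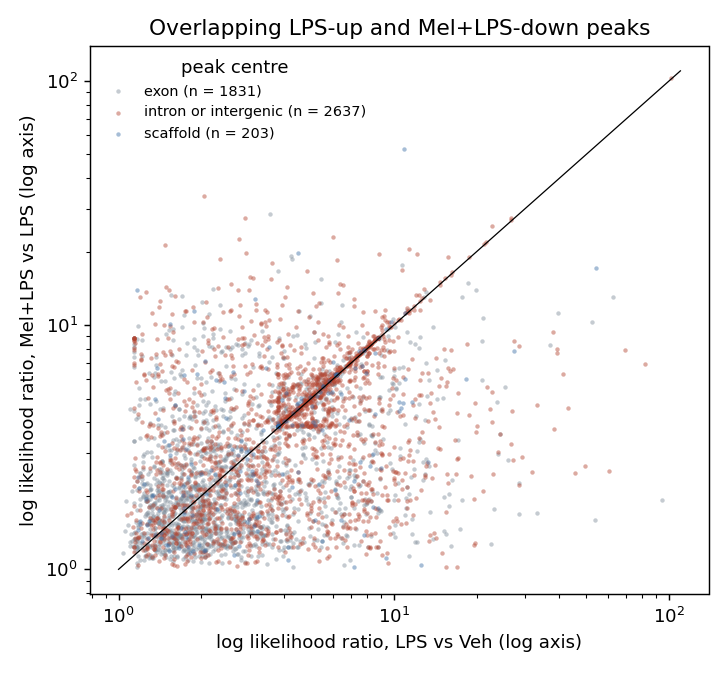
Scores of the 4671 pairs of an LPS-up peak (x axis, log likelihood ratio in LPS vs Veh) and the Mel+LPS-down peak it overlaps (y axis, log likelihood ratio in Mel+LPS vs LPS), both on log axes, with the line of equal scores. Points are colored by the GENCODE position of the LPS-up peak centre, and one pair in an intron of Cdh20 stands alone at the upper right.

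The share of LPS-up peaks that were reversed was mostly higher at higher scores, which the rule uses, and in wider peaks, which meet others more easily. It was 22.5% of 2061 peaks with a score up to 1.5, 36.6% of 2004 from 2 to 3, and 57.5% of 812 over 8. It was 27.9% of 2530 peaks up to 130 bases wide and 57.3% of 1085 over 300 bases. The 740 peaks of exactly 200 bases were apart from this order, with 450 reversed (60.8%). The median width was 194 bases in reversed and 167 in other LPS-up peaks. By chromosome, the share on autosomes ran from 35.5% on chromosome 7 to 41.4% on chromosome 3, with overlapping intervals, and 39.5% were reversed on the X.

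The feature class, which the rule did not use, differed between reversed and other LPS-up peaks. In the authors' annotation, 20.4% of reversed peaks were distal intergenic (19.3% to 21.6%) against 9.30% of the others (8.66% to 9.99%). First introns held 7.34% against 3.46%, and other introns 16.8% against 11.7%. Exons outside the UTRs and after the first held 22.3% (21.1% to 23.5%) against 39.0% (37.9% to 40.2%). Together, introns and distal intergenic sequence held 44.5% of reversed and 24.5% of other LPS-up peaks, a difference of 20.04 percentage points (18.3 to 21.8). The 3′UTR class held 18.8% against 21%, a difference of -2.23 percentage points (-3.68 to -0.762), which was -4.19 with at least 50% of each peak shared and -6.89 at scores of at least 3 in both tables. The 5′UTR class held 2.38% against 4.21%. From the side of the other table, the 4659 Mel+LPS-down peaks that met an LPS-up peak were set beside the 4552 that did not. Exons other than the first held 22.1% against 23.4%, with overlapping intervals. Introns and distal intergenic sequence held 44.6% against 34.3%, and 3′UTRs 18.9% against 25.97%. The exon difference was thus seen against other LPS-up peaks and hardly against unmet Mel+LPS-down peaks.

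**Figure D2:**
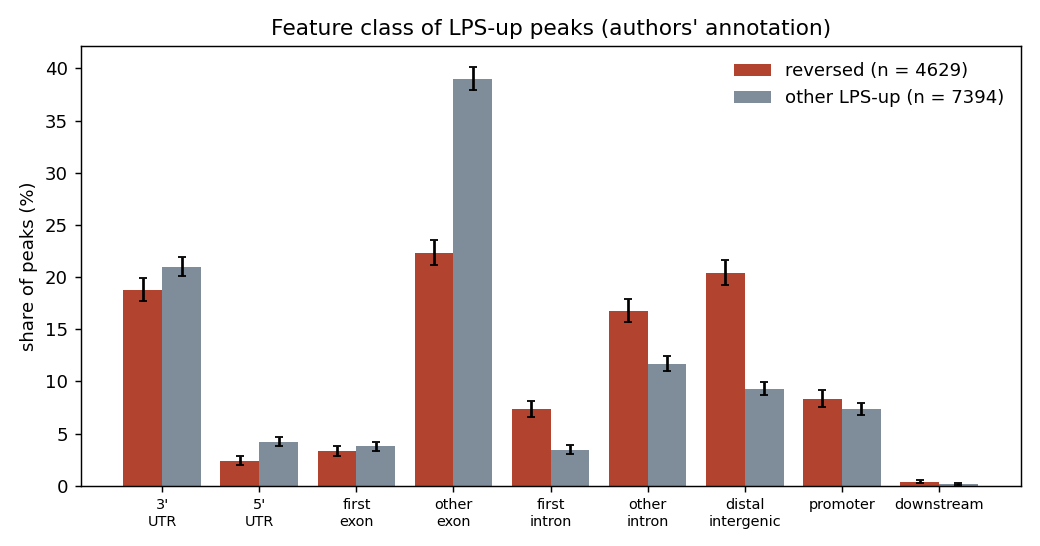
Share of peaks (y axis, percent) in each feature class of the authors' annotation (x axis) for the 4629 reversed and 7394 other LPS-up peaks, with Wilson 95% intervals as error bars. Introns and distal intergenic sequence hold more of the reversed peaks, and exons other than the first hold 22.3% of them against 39.0% of the others.

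Seen from the class, 57.9% of the 1633 distal intergenic LPS-up peaks were reversed (55.5% to 60.2%), as were 57.0% of the 596 in first introns and 47.3% of the 1642 in other introns. In exons other than the first, 26.4% of 3919 were reversed (25.003% to 27.8%), in 3′UTRs 35.9% of 2422 and in 5′UTRs 26.1% of 421. Promoters lay between, with 41.6% of 929. The score moved with the class, and the difference was present within ranges of the score. In each of 8 score ranges the reversed peaks lay more often in introns or intergenic sequence, from 21.4% against 13.3% at scores up to 1.5 to 52.7% against 29.9% at scores over 8. At the tied score, the shares were 74.8% and 63.6%. Within each of 6 ranges of width the reversed share was also the higher, from 50.8% against 35.8% up to 130 bases to 37.3% against 14.3% over 300.

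**Figure D3:**
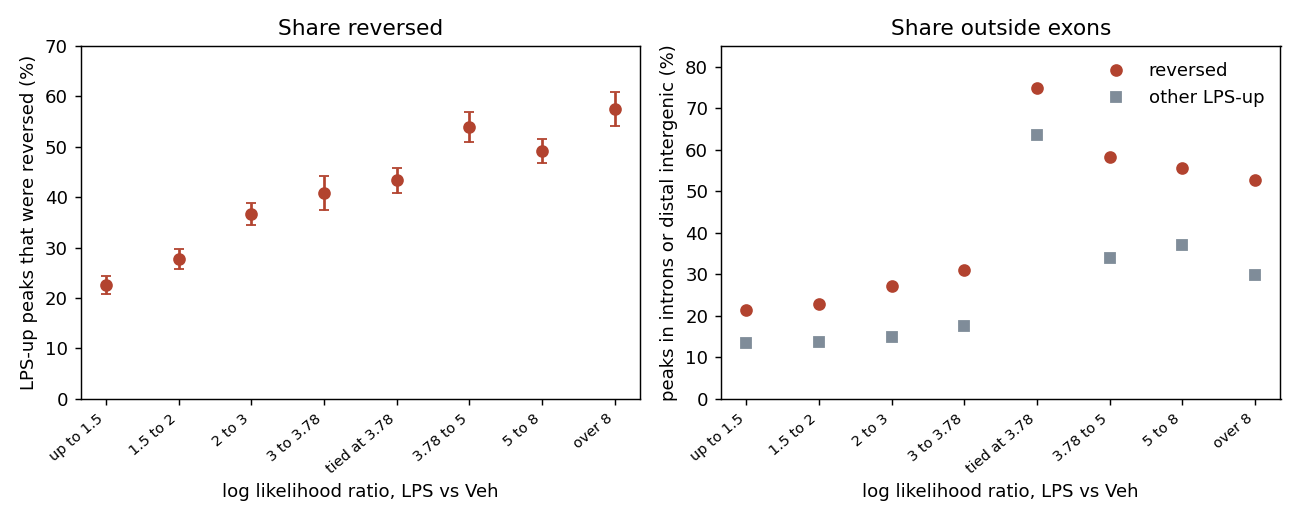
Left, share of LPS-up peaks that were reversed (y axis, percent, with Wilson 95% intervals) in 8 ranges of the LPS vs Veh log likelihood ratio (x axis). Right, share of reversed and other LPS-up peaks in introns or distal intergenic sequence (y axis, percent) in the same ranges, where the reversed peaks are the higher in every range and both are highest at the tied score.

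The difference was also present among peaks assigned to the same genes. Among 1243 assigned genes with both kinds of peak, 40.6% of 1639 reversed peaks (38.2% to 43.0%) and 26.4% of 1923 others (24.5% to 28.4%) were in introns or intergenic sequence. By the GENCODE position of the centre, which also counts exons of minor transcripts, 14.02% of reversed and 27.7% of other LPS-up peaks were in coding sequence, 17.7% and 18.6% in 3′UTRs, 34.0% and 32.5% in introns, and 25.3% and 12.4% in intergenic sequence. The 5′UTR held 0.723% and 1.34%. Introns differed little on this annotation, unlike on that of the authors. The assigned gene, that with the nearest start site, contained the centre of 36.9% of reversed and 45.4% of other LPS-up peaks, so an assigned gene is often a neighbor. It was protein-coding for 58.6% and 65.4%, a lncRNA for 23.6% and 19.0%, and a pseudogene for 11.6% and 9.55%, over the 4450 and 7122 peaks whose assigned gene matched RefSeq by symbol.

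The opposite pair of tables differed in the other direction. On chromosomes 1 to 9, the part of the LPS-down table used here, 1895 of 6259 LPS-down peaks met a peak higher in Mel+LPS. Of these, 13.98% were in introns or intergenic sequence (12.5% to 15.6%), against 34.8% of the other 4364 LPS-down peaks. On the same chromosomes the values for reversed and other LPS-up peaks were 45.004% of 2382 and 24.4% of 3838. Both pairs of tables share the LPS libraries.

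On mature transcripts, reversed peaks lay further toward the 3′ end. Of the centres on 1 chosen transcript of each protein-coding gene, 53.9% of 1279 reversed peaks (51.2% to 56.7%) and 37.98% of 3162 others (36.3% to 39.7%) were in the 3′UTR, and 44.1% and 59.6% in coding sequence. At scores of at least 3 in both tables the 3′UTR difference was 8.45 percentage points, against 15.97 over all. This share is of exon peaks alone, and so differs from the share of all peaks above. Within 200 bases of the stop codon lay 23.2% and 22.5%, a difference of 0.735 percentage points with an interval from -1.95 to 3.52. More than 1000 bases past the stop codon lay 17.7% (15.7% to 19.9%) and 7.69% (6.81% to 8.67%). The 3′UTRs were of like length, with medians of 1892 and 1985 bases, and the median 3′UTR centre was 525 bases past the stop codon in reversed peaks and 332 in the others. Inside the 348 transcripts with both kinds of peak, 48.2% of 400 reversed and 30.2% of 487 other centres were in the 3′UTR.

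The density of the motif differed by less than its counting error. DRACH occurred 25.04 times per 1000 bases in the 1446 reversed peaks on transcripts (24.5 to 25.6, Poisson interval) and 25.1 times in 3358 others (24.7 to 25.5), a difference of -0.0628 (-0.731 to 0.605). At least 1 DRACH was in 97.9% of each. The core GGAC occurred 5.08 and 5.58 times per 1000 bases, a difference of -0.496 (-0.801 to -0.190), and the GC content was 48.2% and 49.4%. Along transcripts, DRACH was densest in both groups in the bin 75 to 50 bases before the centre, with 28.2 and 27.9 per 1000 bases. The sparsest bin of both groups was 400 to 375 bases upstream, with 19.7. The bin 375 to 400 bases downstream held 21.6 and 21.3. Motifs of peaks in introns and intergenic sequence were not counted, since the reference used here holds transcripts only.

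**Figure D4:**
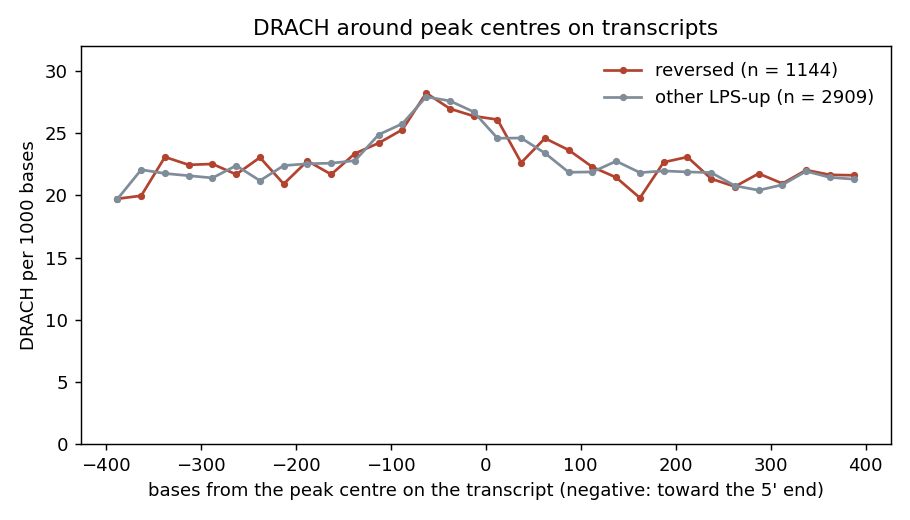
DRACH motifs per 1000 bases (y axis) in bins of 25 bases around the peak centre on the transcript (x axis, negative toward the 5′ end), for 1144 reversed and 2909 other LPS-up peaks with 400 bases on both sides. Both curves peak 75 to 50 bases upstream of the centre, at 28.2 and 27.9, and cross repeatedly elsewhere.

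The 12 reversed peaks with the highest lower score of a pair had centres outside GENCODE exons wherever this was looked up. The first was in an intron of Cdh20, which encodes a cadherin, at chr1:104833992-104834273, with scores of 102 and 103 over the same 282 bases. The next were at chr1:135697360-135697575 near Nav1 (26.7 and 27.1) and chr6:84017143-84017359 in an intron of Dysf, which encodes the membrane-repair protein dysferlin (26.7 and 27.5). Of the 12, 1 was on an unplaced scaffold, where exons were not looked up, and none of the others had its centre on a GENCODE exon. Of all 12, 7 were assigned to a gene with only a Gm or LOC name. In 9 of the 12, the LPS-up and Mel+LPS-down scores were within 5% of each other, as with 16.1 and 16.05 at chr3:67096130-67096293 in an intron, assigned to Gm22295.

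Ordered by LPS-up score alone, the highest reversed peaks again included those of Cdh20 and of the scaffold, but others had a low second score. The 3′UTR peak of Saa3, an acute-phase serum amyloid A gene, had 94.6 in LPS vs Veh and 1.93 in Mel+LPS vs LPS (chr7:46711889-46712195). The 3′UTR peak of Cxcl13, a B cell chemokine, had 53.7 and 1.59, and a peak near the start of Plekhs1 had 69.2 and 7.93. A peak at the promoter of Csf3, which encodes the granulocyte colony-stimulating factor, had 26.7 and 3.26. Saa3 was reversed in part only, since its coding peak (57.7) and an intron peak beside it (50.3) had no Mel+LPS-down peak on them, and are among the 5 highest LPS-up peaks that were not reversed. The others of these 5 were on Slc13a3, a dicarboxylate transporter (62.8 in the 3′UTR and 33.4), and on Ighv5-16 (28.8).

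Immunoglobulin segments, which mark B and plasma cells, were singled out after high LPS-up scores were seen on some of them. How frequent they are among high scores was not counted. Of 55 LPS-up peaks assigned to heavy chain segments, 33 were reversed (60%), on 31 segments, as were 7 of 11 on light chain segments (63.6%) and 3 of 8 on T cell receptor segments (37.5%), beside 38.5% of all LPS-up peaks. Among LPS-up peaks of any gene, 49.1% of those with scores from 5 to 8 and 57.5% of those over 8 were reversed. Whether the segments differ from other peaks of like score was not tested. A peak near Ighj3 had 49.5 in LPS vs Veh and 2.65 in Mel+LPS vs LPS. The 3 peaks of Igha, the IgA heavy chain constant region, had 42.8 and 4.60, 28.6 and 2.25, and 24.4 and 3.58. Ighv1-75 had 18.7 and 14.8. Segments share sequence with their neighbors, so the segment to which a read belongs is uncertain, and B cell number was not measured.

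A small share of the reversed peaks lay close together. With LPS-up peaks up to 5000 bases apart joined, there were 9508 runs, of which 7836 held 1 LPS-up peak. At least 4 reversed peaks were in 40 runs, which took in 181 of the 4629 reversed peaks. At Il17rb, which encodes a receptor for interleukin 25, 5 of 6 LPS-up peaks on chromosome 14 were reversed. The 3′UTR peak (chr14:29996257-29996973) had 62.8 and 13.0, and the 4 next to it, past the annotated end of Il17rb and centred on a noncoding exon of Actr8, had 39.6 and 11.2, 52.3 and 10.3, 23.6 and 4.84, and 21.01 and 10.7. The sixth, with 1.81, was not reversed. The neighboring gene Chdh, choline dehydrogenase, had 5 reversed peaks of 5 by exon, from 13.4 and 2.65 in coding sequence to 3.86 and 1.88 in the 3′UTR.

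At Calb1, which encodes the calcium-binding protein calbindin of the uterine epithelium, all 5 LPS-up peaks were reversed. The last (chr4:15907377-15908065) spans 689 bases in both tables with scores of 19.8 and 13.9, and the one before it in the 3′UTR had 17.2 and 3.40. The 3 peaks centred in introns had 6.98 and 4.14, 4.28 and 5.59, and 6.38 and 2.22. Slc25a48, a mitochondrial carrier gene, had 2 reversed 3′UTR peaks with 37.1 and 8.26, and 20.997 and 8.57. All 7 LPS-up peaks in introns of Ctse, which encodes the protease cathepsin E, were reversed, with LPS-up scores from 1.83 to 41.3 and Mel+LPS-down scores from 1.34 to 7.53.

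**Figure D5:**
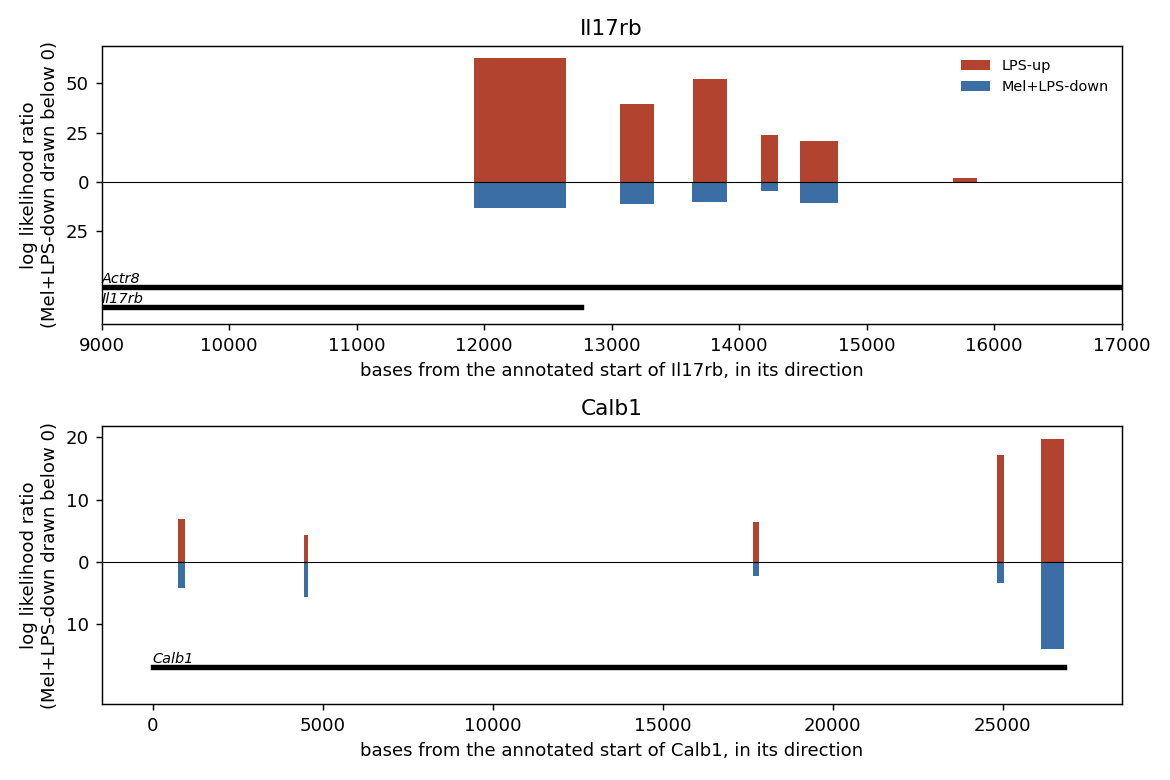
Score of each peak (y axis, log likelihood ratio, LPS-up drawn above and Mel+LPS-down below 0) against its distance in bases from the annotated start of Il17rb (top) and Calb1 (bottom), with the gene bodies as black lines. Each Mel+LPS-down peak lies under an LPS-up peak of nearly the same ends, and only the last LPS-up peak of the top panel, with 1.81, has none.

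Other genes with the most reversed peaks by assignment were Gm16505 (10 of 11 LPS-up peaks), Chd9 (7 of 7), E130008D07Rik (7 of 10) and Gm52108, whose 6 of 6 lie on Chdh and Cacna1d. Those of Chd9, a chromatin remodeler, were in introns within chr8:90873012-90891879, except 1 on a noncoding exon. By exon, the genes included Anpep, an aminopeptidase (4 of 4), Rxfp1, the relaxin receptor (4 of 6), Msx1 (3 of 3), Bmf (3 of 3), Rspo3, a Wnt agonist (3 of 3), Ptgfr, the prostaglandin F receptor (3 of 5), Mpeg1, a macrophage perforin (3 of 4), Klrk1, the NKG2D receptor (3 of 4), and Igfbp5 (3 of 6). In Igfbp5, all 6 peaks were in the 3′UTR, and the 3 reversed ones were 4254, 3032 and 2540 bases past the stop codon, further than the 3 others at 2008, 1612 and 203.

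Genes with several LPS-up peaks had all, some or none of them reversed. With 38.5% of all LPS-up peaks reversed, a mix within genes is frequent by count alone. Whether the mix differs from that was not tested. Of 2425 assigned genes with at least 2 LPS-up peaks, 306 (12.6%) had all of them reversed, 876 (36.1%) none and 1243 (51.3%) some. By the gene whose exon held the centre, it was 108 of 1125 (9.60%) with all, 540 (48%) with none and 477 (42.4%) with some. Gene lists were read against 2 backgrounds. Of 8067 genes assigned an LPS-up peak, 3815 had a reversed one (47.3%), and of 4331 genes whose exon held the centre of an LPS-up peak, 1647 did (38.0%). The median LPS-up score of peaks on exons was 2.07 for all and 2.505 for the reversed ones. The lists are small and were chosen with earlier results of these data known, so their counts are a description.

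Among interferon-stimulated genes, 12 of 21 assigned an LPS-up peak had a reversed one (57.1%), and 12 of 20 by exon (60.0%, 38.7% to 78.1%), the lower end of which is near the 38.0% of all genes. The median LPS-up score of the list on exons was 2.28. Gbp6, shown above, led with 13.1 and 7.001. Ddx58, the RNA sensor RIG-I, had 2.34 and 9.63 on a noncoding exon and 2.35 and 1.42 in its 3′UTR. Ifit1, an RNA-binding antiviral protein, had 2.27 and 2.94 near the stop codon, and Usp18, a brake on interferon signaling, 2.95 and 2.10. Gbp4, Gbp5, Irf5, Parp14, Parp9, Iigp1, Adar and Eif2ak2 completed the 12 by exon, each with a lower score from 1.18 to 2.08. The guanylate-binding proteins are close paralogs, and reads could be split among them.

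In the TLR and NF-κB list, 7 of 28 genes by assignment (25%) and 5 of 26 by exon (19.2%, 8.51% to 37.9%) had a reversed peak. The median LPS-up score on exons was 2.10. Those by exon were Traf5, a receptor adaptor (5.94 and 5.75 on a noncoding exon), Malt1, a protease of NF-κB activation (5.2 and 5.29), Tlr7 (2.03 and 2.49), Tnfaip3, the NF-κB inhibitor A20 (3.96 and 1.71 in the 3′UTR), and Tlr2 with 2 peaks (3.30 and 1.41, 3.12 and 1.27). Tlr4, the LPS receptor, had a coding LPS-up peak of 2.20 that was not reversed.

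Of cytokine, chemokine and acute-phase genes, 7 of 17 by assignment (41.2%) and 5 of 12 by exon (41.7%) had a reversed peak, with a median LPS-up score of 3.10. Besides Saa3, they were the ceruloplasmin gene Cp with 3 peaks (4.41 and 4.44 for the first), the eosinophil chemokine Ccl11 (1.94 and 2.21), Ccl7 (2.499 and 1.38) and Cxcl10 (1.77 and 1.958). Leukocyte markers had 6 of 17 (35.3%) and 3 of 16 (18.8%, 6.59% to 43.0%), namely B2m, Cybb, the phagocyte oxidase subunit, and Fcgr1. These shares are below both backgrounds, but their intervals, 17.3% to 58.7% by assignment and that given by exon, include them. No level of these cells was measured.

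Immediate-early genes, transcribed within minutes of a stimulus, had 9 of 13 by assignment (69.2%) and 8 of 12 by exon (66.7%, 39.1% to 86.2%), with a median LPS-up score of 2.36. Fosb had a 5′UTR peak (5.29 and 3.65) and a 3′UTR peak (2.36 and 4.53). The orphan nuclear receptors Nr4a1 (3.40 and 2.53), Nr4a2 (3.47 and 1.49) and Nr4a3 (7.94 and 1.68) were all in the list of 8. The remaining ones were Fos, Egr1 (4.18 and 1.32), Ier3 (2.94 and 1.46) and the mRNA decay factor Zfp36l1 (1.79 and 1.096).

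Of uterine receptivity and decidua genes, 10 of 20 by assignment (50%) and 8 of 22 by exon (36.4%) had a reversed peak, near both backgrounds. Beside Calb1, Msx1, a homeobox gene of receptivity, had 3 peaks (7.005 and 4.17 at the stop codon, 8.28 and 3.56 in the 3′UTR, 7.92 and 1.85 in coding sequence). Nrip1, a nuclear receptor co-repressor, had 3, with lower scores from 1.20 to 1.54. Foxa2, which marks uterine glands (1.66 and 1.36), Ptgs1, a prostaglandin synthase (2.66 and 1.21), Egfr, Sox17 and Ncoa6 followed. The progesterone receptor gene Pgr had reversed peaks in introns and intergenic sequence but on none of its exons, with 12.5 and 11.6 at chr9:8935199-8935432, and Esr1 had an intron peak with 2.62 and 6.29.

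Steroid and melatonin receptors and their partners had 7 of 11 (63.6%) and 4 of 8 by exon (50%). Those by exon included Nr3c2, the mineralocorticoid receptor, with a 3′UTR peak of 12.2 and 1.29, Rora, a nuclear receptor of the clock, with 4.43 and 5.10, and Nrip1, described above. The peak assigned to Mtnr1b (1.78 and 1.20, 3 bases shared) lies in coding sequence of Fat3. Clock genes had 2 of 5 by assignment and 4 of 5 by exon, with Per1 (2.40 and 2.24), Per2 (2.07 and 1.64) and Cry2 (1.36 and 1.48) beside Rora.

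Chromatin genes showed how far the gene of a peak matters, with 8 of 33 by assignment (24.2%) and 16 of 39 by exon (41.0%). Hdac9, a histone deacetylase (7.72 and 7.72 in the 3′UTR), Kdm6a, an H3K27 demethylase (7.24 and 7.43 in coding sequence), Suz12, a subunit of the PRC2 complex (2.94 and 3.12), and Tet2, a DNA demethylase (2.51 and 3.20), had the highest lower scores. Among m6A regulators, 2 of 8 by assignment and 2 of 6 by exon had a reversed peak. The reader Ythdf3 did by both (1.90 and 2.14 near its stop codon), the writer subunit Rbm15 by a promoter peak assigned to it (2.08 and 3.14), and the reader Igf2bp2 by exon (1.20 and 3.46). The LPS-up peaks of the writer Mettl16 (1.39) and those assigned to Mettl3 (1.69, in Tox4) and Alkbh5 (1.41) were not reversed.

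For apoptosis genes, 11 of 21 by assignment (52.4%) and 3 of 13 by exon (23.1%) had a reversed peak. The 3 were Birc6, an inhibitor of apoptosis (5.29 and 5.46 in coding sequence), the BH3-only gene Bmf with 3 peaks in the 3′UTR, and Bcl2, with 1.81 and 1.62 in the 3′UTR, 1431 bases past the stop codon. A second Bcl2 3′UTR peak (2.49) was not reversed, and the peak assigned to Bax (1.94 and 7.57) lies in the 3′UTR of Dhdh. Autophagy and mTOR genes had 8 of 16 (50%) and 5 of 11 by exon (45.5%), with Atg14 (1.91 and 2.13), Tsc1 (2.07 and 1.91), Tfeb (2.67 and 1.69), Rb1cc1 and Nbr1. The exon peaks of Atg5 (1.89) and Sqstm1 (1.33) were not reversed. Over the genes measured by qPCR in the study, 2 of 8 by assignment and 1 of 5 by exon had a reversed peak, the latter Bcl2.

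The other lists had few members. Their intervals all included the shares over all genes, 47.3% by assignment and 38.0% by exon. Wnt and Notch genes had 8 of 18 and 11 of 24 by exon (45.8%), led by Wnt9a (3.29 and 3.65), Wnt7a (2.13 and 2.02) and Maml3 (2.01 and 12.5). Extracellular matrix genes had 5 of 16 and 4 of 11, led by Col6a2 (4.79 and 5.10). Smooth muscle genes had 5 of 8 and 4 of 9, led by Pde5a (1.55 and 6.40). Epithelial genes had 4 of 5 and 2 of 4, Cdh16 (3.785 and 3.85, the tied pair) and the desmosome gene Dsp (2.60 and 2.71). Antioxidant genes had 7 of 10 and 2 of 5, Sod2 (1.69 and 3.12) and Keap1 (1.27 and 2.26).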

How the data were processed

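Uterine RNA was fragmented to about 100 bases and immunoprecipitated with an m6A antibody, with an input library beside each, in 3 replicates of Veh, LPS and Mel+LPS. Per the submitters' processing notes, STAR 2.5.2a, MACS2 3.4, ChIPseeker 1.22.1 and HOMER 4.10 were used on mm10 (GRCm38). The authors deposited tables of differential peaks with 1 score per peak, the log10 likelihood ratio between treatments, a feature class and the gene with the nearest start site. How replicates were combined and the depth behind a score are not given in the sources used here. The LPS-down table was used on chromosomes 1 to 9 only.

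LPS-up peaks were joined with Mel+LPS-down peaks of the same sequence name that shared at least 1 base, in Python 3.11.15 with numpy 2.4.6 and pandas 2.3.3 (figures with matplotlib 3.10.9), and the scripts were tested on simulated data. The gene and place of a peak centre, the transcript and its strand came from GENCODE release 21, with 1 transcript per gene. No test was made, since no value per replicate was used. Shares have Wilson intervals, motif densities Poisson intervals. The members, gene lists and measures were chosen with earlier results of these data known. The rule named the 12 reversed peaks with the highest lower score, the 5 assigned genes with the most reversed peaks, up to 4 genes per list, the genes measured by qPCR, the 5 highest LPS-up peaks that were not reversed, and 3 peaks on either side of the overlap limit. Other genes and the order by highest LPS-up score or by exon were chosen after their values were seen. Stricter overlaps and scores, other annotations and other gene assignments were tried as alternatives.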

Additional observations from a re-analysis of the deposited data

How the results depend on the processing

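With a score of at least 3 in both tables there were 2161 reversed LPS-up peaks (36.9%) on 2162 Mel+LPS-down peaks (46.2%), and with at least 6 there were 441 (24.7%) on 441 (33.7%). These percentages are of the peaks that reach the score in each table, not of all its peaks. The share of LPS-up peaks reversed was 34.7% with at least 50% of the LPS-up peak covered, 33.6% with at least 50% of each peak shared, 34.7% without promoter, downstream and intergenic peaks, and 47.3% over assigned genes. The share of Mel+LPS-down peaks met was 45.3%, 43.8%, 48.3% and 55.0% in the same order. The difference in introns and intergenic sequence was 22.0 percentage points with 50% of each peak shared, 25.6 at scores of at least 3 and 14.3 with GENCODE, by which coding exons differed by -13.6. The 3′UTR class differed by -4.19 with 50% of each peak shared and -6.89 at scores of at least 3, and the median width by 23 and 14 bases. On transcripts, the 3′UTR difference was 8.45 percentage points at scores of at least 3. By exon in place of assignment, 9.60% of genes with several LPS-up peaks had all reversed, and lists had 3 (leukocyte), 2 (epithelial), 5 (autophagy), 3 (apoptosis), 16 (chromatin), 4 (steroid receptors), 4 (circadian), 2 (antioxidant) and 1 (qPCR) genes with a reversed peak. The cause of these moves was not tested. Where the interval included 0 the sign was not fixed: the DRACH difference was 0.138 per 1000 bases with 50% of each peak shared, and the difference within 200 bases of the stop codon -0.0142 percentage points there and -0.0329 without peaks over 300 bases. Leaving out the tied score, leaving out peaks over 300 bases and counting several peaks by exon were chosen after seeing the data. No paired analysis was possible because the tables hold no value per replicate, and for the same reason no replicate could be left out.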
